A study of Homo sapiens with 18 samples.

Results

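The genes described here are the very long ones, whose genomic span from the lowest exon start to the highest exon end in the deposited count files is 600000 bases or more. They are 268 of the 58884 genes counted, and they comprise 210 protein-coding genes, 55 long non-coding RNA genes and 3 pseudogenes. Nearly all of such a gene is intron, so RNA polymerase II has to travel for hours before a transcript is finished, and conflicts between transcription and DNA replication arise there readily. Many of the best known common fragile sites, the places where chromosomes break under replication stress, lie inside genes of this size. A large share of the class encodes adhesion molecules, receptors and scaffold proteins known mainly from neurons.

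Polyadenylated RNA was sequenced from T47D, an established line of luminal, estrogen receptor-positive breast cancer cells, in 6 groups of 3 libraries. Cells labelled T47D AAV carry the genotype label WT, and cells labelled T47D JL carry the label PARP1 KO. Either kind was given DMSO, 10 µM niraparib or 10 µM olaparib, both inhibitors of the ADP-ribosylating enzymes PARP1 and PARP2, and was harvested after 48 h. The knockout is represented by 1 line, so its genotype cannot be told apart from other differences between these cultures, and the labels do not say whether the 3 libraries of a group are separate cultures. P values therefore measure the spread between these libraries, which may be technical. The study's methods describe 3 dishes per condition without saying whether each gave 1 library.

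The libraries held between 28890837 and 52251288 counted reads. PARP1 itself was at 25.1 ± 1.38 CPM (reads of a gene per 1000000 counted reads after TMM scaling; SD, n = 9) in the PARP1 KO libraries and at 337 ± 27 in the WT libraries, with the highest PARP1 KO value at 27.6 and the lowest WT value at 291. All 10 luminal markers were at 10 CPM or more, from ESR1 at 149 to KRT8 at 3461. Their summed level was 14457 to 15205 CPM in the WT DMSO libraries and 10459 to 11642 with niraparib in WT cells, where PGR (-0.88) and GATA3 (-0.74) fell and 8 of the 10 were lower at an adjusted P value below 0.05 (edgeR). With olaparib it was 11458 to 11980 CPM in WT cells, where PGR fell and 8 of the 10 were lower at that adjusted P value, and in PARP1 KO cells 5 of the 10 were lower with olaparib and 0 with niraparib. The PARP1 KO sum was 16135 to 16801 CPM with DMSO, 14952 to 15186 with niraparib and 13739 to 14853 with olaparib, so both drugs lay below DMSO without overlap there too. Of 21 markers of neurons, fibroblasts, immune, endothelial and basal cells, 4 reached 1 CPM, led by COL1A1 at 110 and SYT1 at 36.7, and none was at 0 in all libraries, while STMN2 was lowest at 0.0014. Their summed level was 143 to 166 CPM in the WT DMSO libraries and 158 to 197 with niraparib in WT cells, where the basal marker TP63 rose (0.78, edgeR, adjusted P = 0.0031), while the basal keratins KRT5 and KRT14 had means below 0.05 CPM in both groups. The part of either list in the results was not tested.

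WT DMSO replicate 1, WT niraparib replicate 2 and PARP1 KO niraparib replicate 3 stood apart from the other libraries of their groups. Their chi-square per gene against those libraries was 11.7 to 19, while the remaining pairs of these groups had 3.13 to 3.41, and the deviations of the 3 libraries from their group means correlated at 0.60 to 0.66. The PARP1 KO olaparib libraries were also spread, at a chi-square per gene of 8.21 to 18.3, as were PARP1 KO DMSO replicates 1 and 3 at 10.5, and PARP1 KO olaparib replicate 3 and PARP1 KO DMSO replicate 1 correlated with the 3 libraries at 0.44 to 0.55. Values without these 3 libraries are given beside the summed level, the counts over all the very long genes, the fragile-site counts and the span classes, but not for the groups of roles.

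The spans of the 268 genes ran from 602285 to 2473536 bases, with a median of 844784.5. RBFOX1, a splicing regulator, was longest, followed by CNTNAP2 (2304996 bases), PTPRD (2298477), DMD (2241764) and DLG2 (2172910). Despite these spans, their exons together measured a median of 9182 bases, so exons made up a median of 0.954% of the span, against 15.9% over all protein-coding genes. Only exon reads were counted, so the values describe finished, polyadenylated RNA and not transcription along the introns, and short transcripts from an internal start count toward the same gene. Chromosome 3 held 35 of the genes and chromosome 2 held 28. Just inside the limit lay 3 long non-coding RNA genes without a symbol, ENSG00000285216 (602285 bases), ENSG00000237844 (602650) and ENSG00000283380 (604547), of which only the last had any counts, at a mean of 0.178 CPM. Just outside lay ENSG00000228999 (597837 bases, mean 0.0011 CPM), SNX29 (597553, mean 26.3 CPM) and NFIA (597529, mean 76.8 CPM). These shares use exon lengths of the annotation, in which 14 of the 268 genes overlap another gene over more than 10% of their exon bases, and same-strand reads in such overlaps were left uncounted.

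Much of the class had few or no counts in T47D cells. Of the 268 genes, 25 had no count in any of the 18 libraries, 54 had 1 to 10 counts in total, and 189 had more. A mean of 1 CPM was reached by 90 of them, 10 CPM by 56 and 100 CPM by 12. RBFOX1 had 2 counts in all and PTPRD had 6, whereas DMD, which encodes dystrophin, stood at a mean of 8.92 CPM and DLG2, a membrane scaffold, at 22.1 CPM. LSAMP, a cell adhesion gene, had none. Per kilobase of exon in the WT DMSO libraries, the highest level was that of THSD4, which encodes a matrix protein of fibrillin microfibrils, at 30.1 ± 0.0728 CPM per kb (SD, n = 3). TENM3, a teneurin adhesion receptor, followed at 24.5 ± 1.45, then LRBA, a vesicle trafficking protein, at 16.3 ± 0.261, and SUMF1, which activates sulfatases, at 16.1 ± 1.58, so that LRBA and SUMF1 differed by less than their spread. The next 6 were TBC1D5 at 14.4, EXOC4 at 10.7, ROBO1 at 9.72, SHANK2 at 9.62, TRAPPC9 at 9.28 and PARD3 at 8.92 CPM per kb. From EXOC4 on, several neighbours lay closer to each other than their libraries did, since ROBO1 ranged from 9.48 to 9.89 and SHANK2 from 9.25 to 10.0.

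Summed over the 268 genes, the level was lower with niraparib in WT cells. The WT DMSO libraries were at 3845, 3863 and 3864 CPM, and the WT niraparib libraries at 3363, 3158 and 3293, so the groups did not overlap and niraparib stood at 84.8% of DMSO, or 86.1% without the libraries that stood apart. WT olaparib libraries were at 3736, 3727 and 3794 CPM (97.3% of DMSO), below all WT DMSO libraries. PARP1 KO libraries were at 4000, 4012 and 4005 CPM under DMSO and at 4085, 3948 and 3969 under niraparib, which overlap. Under olaparib they were at 4171, 4371 and 4052, above all PARP1 KO DMSO libraries and so on the other side of DMSO from WT olaparib. A few genes carried much of this sum: THSD4, TENM3, LRBA, LPP and SHANK2 gave 36.3% of it over the 18 libraries. Without these 5, WT niraparib libraries stood at 90.8% of DMSO, and without THSD4 alone at 88.0%. The 792 genes of 300 to 600 kb, as a comparison, were at 99.1% of DMSO with niraparib in WT. With olaparib in PARP1 KO cells these 792 genes were at 104.6% of DMSO, beside 104.8% for the very long genes. In these bulk libraries, fewer cells that express a gene and less RNA per cell cannot be told apart.

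**Figure D1:**
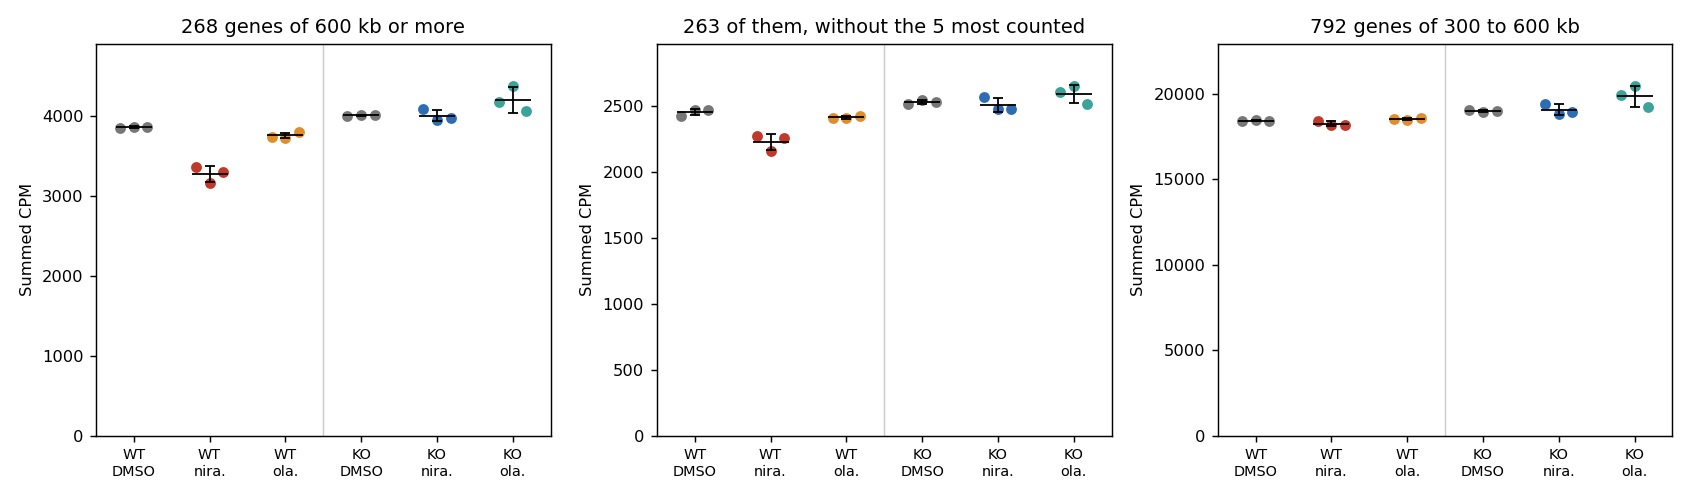
Summed level in CPM (vertical axis, from 0) in each library of the 6 groups, for all 268 very long genes, for 263 of them without the 5 most counted, and for the 792 genes of 300 to 600 kb. Points are libraries and bars the mean ± SD (n = 3); the WT niraparib libraries lie lowest in the first and second panels (3271 ± 105 CPM in the first), while in the third they average 99.1% of DMSO.

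A gene was called when its adjusted P value over all genes tested was below 0.05 and its change was more than 1.5-fold (edgeR quasi-likelihood test, Benjamini-Hochberg adjustment), and "rose" or "fell" is written only of called genes. Log2 fold changes are given ± their standard error in the fit. With niraparib in WT cells, 171 of the 268 genes had enough counts to be tested, and 24 of them were called. That is 14.04%, beside 13.8% of all 22446 genes tested. In direction, 12 of the 171 rose (7.02%, beside 8.1% of all genes) and 12 fell (7.02%, beside 5.72%). The median log2 fold change was -0.06 over the 171 genes and -0.02 over all genes, and it was 0.01 without DMSO replicate 2 and -0.01 without DMSO replicate 3. Without the 3 libraries that stood apart, 21 of 165 genes were called, 9 higher and 12 lower, of which 19 were among the 24, and SHANK2, GPC6, KALRN, CNTNAP2 and FGF13 lost their calls. Among the 90 genes at 1 CPM or more, the median was -0.11, beside -0.01 over the 13526 genes at that level, and 54 of the 90 (60.0%) had a change below 0, beside 50.7%. An adjusted P value below 0.05 regardless of size was reached by 63 of the 171 (36.8%, beside 38.0% of all genes), of which 38 were lower with niraparib (22.2%, beside 18.1%).

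Among the genes that fell was ARHGAP15, a GTPase-activating protein for RAC. It went from 18.7, 20.6 and 23.1 CPM to 9.04, 6.92 and 9.18 CPM, a log2 fold change of -1.32 ± 0.10 (edgeR, adjusted P = 1.9e-09). DLG2 (chromosome 11 from 83455012 to 85627922 of GRCh38) went from 27.8, 25.1 and 26 CPM to 12.5, 11.8 and 13.3 CPM, or -1.07 ± 0.08 on the log2 scale (edgeR, adjusted P = 2.5e-10). In both genes every niraparib library was below every DMSO library, which was a condition for naming a gene here and adds nothing to its test.

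ERBB4, the neuregulin receptor of the epidermal growth factor receptor family (chromosome 2 from 211375717 to 212538841), was at 34.5, 35.8 and 35.4 CPM with DMSO and at 21.1, 19 and 21.4 CPM with niraparib in WT cells. Its log2 fold change was -0.79 ± 0.07 (edgeR, adjusted P = 2.9e-09). THSD4, the most abundant of all the very long genes, went from 477, 477 and 475 CPM to 317, 266 and 299 CPM, a change of -0.70 ± 0.06 on the log2 scale (edgeR, adjusted P = 1.3e-09). The DMSO libraries of ERBB4 and THSD4 lay close together, and none of their niraparib libraries came near them. SHANK2, a scaffold protein, and GPC6, a glypican of the cell surface, fell just past 1.5-fold, each by 0.59 on the log2 scale, and leaving out 1 library at a time ended each call in 2 of 6 fits.

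Other genes that fell were low in level. RGS6, a regulator of G protein signalling, went from 2.47, 1.88 and 2.42 CPM to 1.25, 0.919 and 1.11 CPM (log2 fold change -1.05 ± 0.22, edgeR, adjusted P = 4.5e-04). SOX2-OT, a long non-coding RNA gene that overlaps SOX2, went from 1.30, 1.28 and 1.05 CPM to 0.476, 0.721 and 0.568 CPM (-1.01 ± 0.30, edgeR, adjusted P = 0.0088). ESRRG, the estrogen-related receptor gamma, and MIR99AHG, a microRNA host gene, had log2 fold changes of -1.07 and -0.77. Their calls were kept in 3 and 2 of the 6 fits without 1 library, respectively.

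Of the genes that rose, ADGRL2, a latrophilin adhesion receptor (chromosome 1 from 81306160 to 81992436), was at 0.233, 0.562 and 0.623 CPM with DMSO and at 1.73, 2.27 and 1.78 CPM with niraparib in WT cells. Its log2 fold change was 1.97 ± 0.30 (edgeR, adjusted P = 1.6e-05). RORA, a nuclear receptor, had 8, 11 and 4 reads with DMSO and 24, 52 and 37 reads with niraparib, or 0.267, 0.213 and 0.0997 CPM against 0.714, 0.937 and 0.913 CPM. The groups did not overlap, and the fitted change was 2.16 ± 0.40 (edgeR, adjusted P = 1.4e-04). DSCAM, an adhesion molecule of the immunoglobulin family, was better covered and went from 13.9, 18.4 and 17.3 CPM to 27.1, 28.1 and 29.0 CPM (0.76 ± 0.08, edgeR, adjusted P = 2.3e-07). FOXP2, a forkhead transcription factor, went from 6.20, 7.15 and 7 CPM to 11.4, 11.9 and 10.8 CPM (0.74 ± 0.10, edgeR, adjusted P = 5.7e-06). PDE4D, a phosphodiesterase that degrades cyclic AMP, went from 2.20, 1.98 and 1.52 CPM to 3.12, 2.85 and 3.65 CPM (0.76 ± 0.19, edgeR, adjusted P = 0.0025). All niraparib libraries lay above all DMSO libraries for each of these genes. The choice of named genes required this, except for RORA, which averaged below 0.5 CPM over the WT libraries and came from the fragile-site list.

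The remaining genes that rose were ATRNL1 (log2 fold change 0.94), CNTN5 (0.89), GRIP1 (0.74), KALRN (0.61) and CNTNAP2 (0.60), together with DOCK3 and FGF13, which were below 0.5 CPM and are named here after their values were seen. GRIP1, a scaffold for glutamate receptors, and ATRNL1 kept their calls in all 6 fits without 1 library, KALRN, an exchange factor for small GTPases, in 4, CNTNAP2, a neurexin-family adhesion molecule, in 3 and CNTN5, a contactin, in 2. For KALRN, 10.4% of the exon bases also belong to another gene. FGF13, a member of the fibroblast growth factor family that acts inside the cell, had 1, 3 and 2 reads with DMSO and 6, 11 and 9 with niraparib, and its call was lost in each of the 6 fits. DOCK3 had 2, 20 and 18 reads against 30, 27 and 32, and its call was kept in 2 of the 6.

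**Figure D2:**
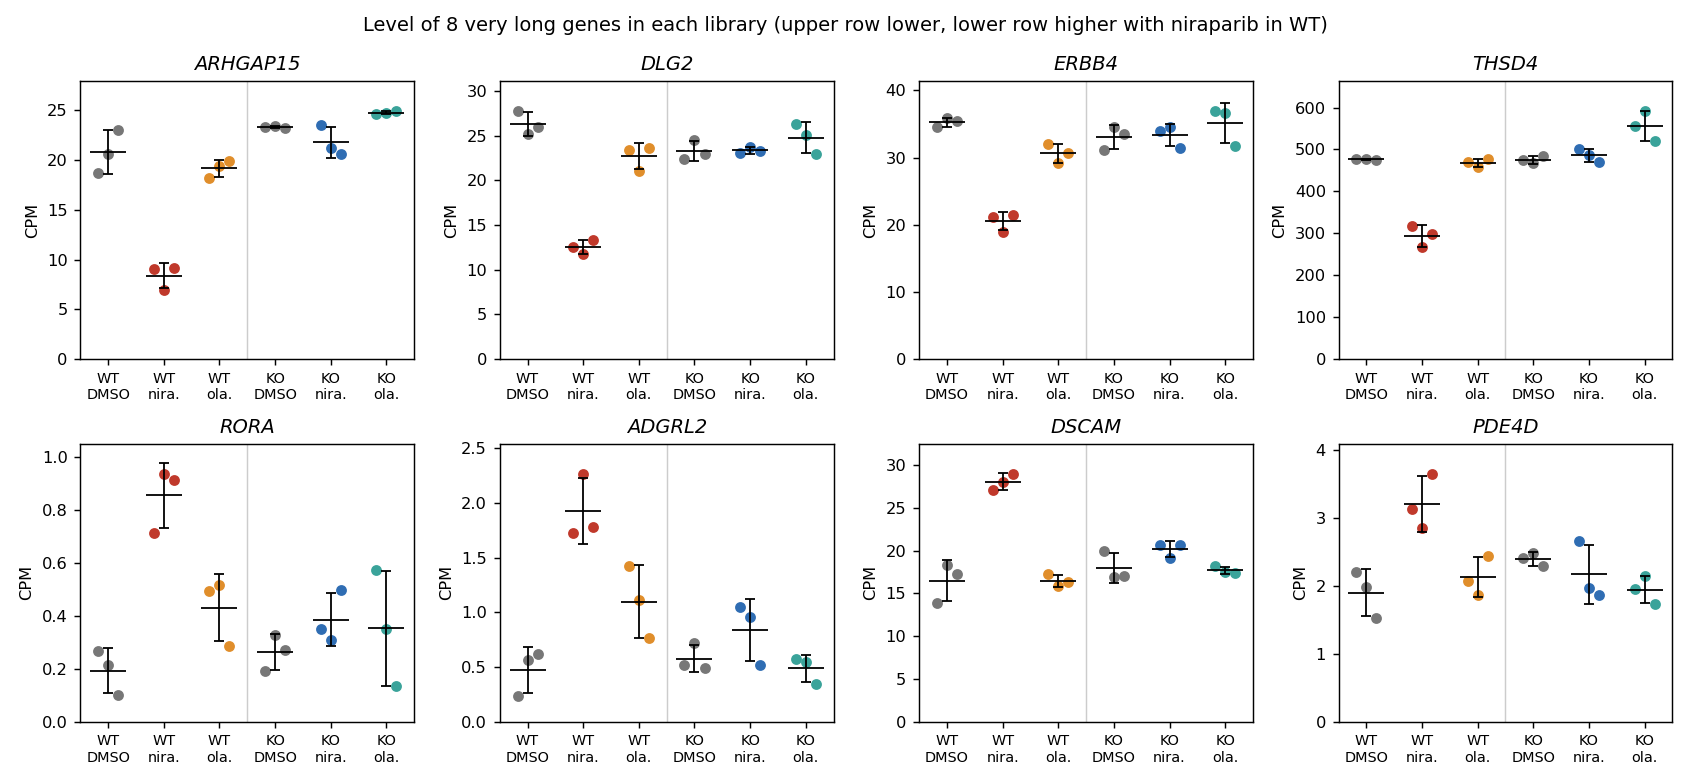
Level in CPM (vertical axes, from 0) of ARHGAP15, DLG2, ERBB4, THSD4, RORA, ADGRL2, DSCAM and PDE4D in every library of the 6 groups, with the mean ± SD (n = 3) as bars. In the upper row the WT niraparib libraries lie below all WT DMSO libraries and in the lower row above them, whereas in the PARP1 KO groups the niraparib libraries of none of the 8 genes were called different from DMSO.

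The calls fell into several groups of roles. Among adhesion genes, 3 of the 22 tested rose and 1 fell, among receptors and receptor phosphatases 2 of 14 rose and 2 fell, and among scaffold, cytoskeleton and vesicle genes 1 of 33 rose and 2 fell. Of 18 genes for nucleotide, kinase and GTPase signalling, 3 rose and 2 fell. Of 24 long non-coding RNA genes and pseudogenes, 2 fell and 0 rose. Of 5 genes for secreted ligands and matrix, 1 fell and 0 rose. These counts stand beside the 8.1% and 5.72% of all genes called higher and lower. Of the 10 genes for channels and transmitter receptors, the 14 for nucleic acid binding and transcription and the 18 of other protein-coding function, 1 rose in each group and 0 fell. A group of enzymes is not reported here.

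Start sites were taken from RefSeq, and for 187 of the 268 genes a promoter window of 250 bases before that start was found (GRCh38.p14). For 114 of them the RefSeq start lay within 1000 bases of the outermost end in the count files, with a median GC content of 65.6% and a median of 19 CpG dinucleotides. Among these were 5 genes that fell with niraparib in WT cells, with a median GC content of 49.2% (37.6% to 70.4%) and 6 CpG, and 5 that rose, with 67.6% (56.8% to 80.0%) and 26 CpG. The ranges overlapped, no test was made, and gene-level counts do not show which start was used. To show how far base composition varied, the windows of the 2 genes with the most negative and the 2 with the most positive fold change among the genes at 0.5 CPM or more with such a near start are given 5′ to 3′, with CpG dinucleotides in capitals. They are ESRRG (chr1:217137703-217137952, minus strand) and RGS6 (chr14:71932972-71933221, plus strand), which fell, and ATRNL1 (chr10:115093115-115093364, plus strand) and CNTN5 (chr11:99020699-99020948, plus strand), which rose.
ESRRG: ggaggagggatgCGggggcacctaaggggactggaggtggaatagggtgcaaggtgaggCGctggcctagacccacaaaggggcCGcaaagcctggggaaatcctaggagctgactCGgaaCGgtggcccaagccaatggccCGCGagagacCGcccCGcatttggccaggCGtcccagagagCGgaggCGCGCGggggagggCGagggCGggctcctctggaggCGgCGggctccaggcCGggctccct
RGS6: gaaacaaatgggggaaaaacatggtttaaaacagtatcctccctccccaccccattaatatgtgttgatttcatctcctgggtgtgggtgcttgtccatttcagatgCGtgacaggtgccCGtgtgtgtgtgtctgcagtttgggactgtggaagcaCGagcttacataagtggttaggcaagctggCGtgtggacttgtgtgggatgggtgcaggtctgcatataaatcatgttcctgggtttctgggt
ATRNL1: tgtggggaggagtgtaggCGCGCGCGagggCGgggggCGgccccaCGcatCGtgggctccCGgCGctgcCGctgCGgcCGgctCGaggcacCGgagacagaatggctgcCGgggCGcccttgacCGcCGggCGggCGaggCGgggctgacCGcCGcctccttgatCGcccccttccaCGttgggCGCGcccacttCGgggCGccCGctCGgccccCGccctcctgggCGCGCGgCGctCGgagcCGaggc
CNTN5: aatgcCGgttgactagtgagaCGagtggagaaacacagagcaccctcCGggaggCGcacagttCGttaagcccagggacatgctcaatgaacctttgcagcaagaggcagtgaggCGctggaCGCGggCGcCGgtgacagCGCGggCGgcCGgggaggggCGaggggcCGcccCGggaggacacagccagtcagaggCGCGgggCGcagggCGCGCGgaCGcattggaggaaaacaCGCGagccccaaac
ESRRG had 19 CpG and RGS6 4, whereas ATRNL1 had 39 and CNTN5 26, so the 2 genes that fell differed from each other in CpG number and ESRRG lay nearer to CNTN5.

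Olaparib at the same dose and time gave fewer calls among these genes in WT cells. Of 171 tested, 5 were called, or 2.92% beside 4.04% of all genes, with 4 higher and 1 lower. ADGRL2 again rose, to 1.43, 1.11 and 0.762 CPM (log2 fold change 1.17 ± 0.32, edgeR, adjusted P = 0.012), and each olaparib library was above each DMSO library. CNTNAP2 rose from 1.93, 3.33 and 2.62 CPM to 4.12, 4.69 and 3.37 CPM (0.61 ± 0.19, edgeR, adjusted P = 0.025). SUGCT, a coenzyme A transferase (1.33), and RASGEF1B, an exchange factor for small GTPases (0.87), rose, and PLCL1, a phospholipase C-like protein, had a log2 fold change of -1.15. All 5 calls were lost without at least 1 of the libraries, and PLCL1 kept its call in 1 of 6 such fits. The count of calls was 1 without olaparib replicate 1, 3 without DMSO replicate 3 and 7 without the libraries that stood apart, with 4 of the 5 among them.

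With olaparib in WT cells 24 genes passed the adjusted P value at any size, or 14.04% beside 19% of all genes. Of these, 13 were higher and 11 lower, beside 11.2% and 7.77% of all genes. In both genotypes 3 were lower (RUNX1, TENM3, ROBO2) and 1 was higher (PARD3, a polarity scaffold, at 0.46 in WT and 0.20 in PARP1 KO cells). The share of all genes that passed in both genotypes was not counted, so these counts are a description only. RUNX1, a transcription factor, was at 130, 123 and 130 CPM with DMSO and at 87.2, 92.5 and 85.0 CPM with olaparib in WT cells (log2 fold change -0.53 ± 0.05, edgeR, adjusted P = 1.8e-07). In PARP1 KO cells it was at 159, 152 and 143 CPM with DMSO and at 104, 121 and 118 CPM with olaparib (-0.40 ± 0.06, edgeR, adjusted P = 2.2e-04). TENM3 gave -0.38 in WT (adjusted P = 1.9e-05) and -0.28 in PARP1 KO cells (adjusted P = 0.0025, edgeR), and ROBO2, a receptor for Slit ligands, -0.33 (adjusted P = 0.0098) and -0.30 (adjusted P = 0.025). In each of these 3 genes the olaparib libraries lay below the DMSO libraries of the same genotype without overlap. The interaction of genotype and olaparib had adjusted P values of 0.43, 0.53 and 0.95 for RUNX1, TENM3 and ROBO2, which does not show that the responses were equal.

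Set against each other in WT cells, niraparib and olaparib differed in 18 of the 171 genes (10.5%, beside 8.95% of all genes), 9 higher and 9 lower with niraparib. This comparison shares its niraparib libraries with the comparison against DMSO. ARHGAP15 was at 9.04, 6.92 and 9.18 CPM with niraparib and at 18.2, 19.4 and 19.9 CPM with olaparib (log2 fold change -1.21 ± 0.10, edgeR, adjusted P = 1.7e-08). DLG2 differed by -0.86 ± 0.08 (adjusted P = 1.6e-08) and DSCAM by 0.76 ± 0.09 (edgeR, adjusted P = 3.7e-07). MTUS2, a microtubule-associated protein, differed by -1.39, with 0.476, 0.396 and 0.321 CPM with niraparib against 1.11, 1 and 0.984 CPM with olaparib. ESRRG (-1.17) and RASGEF1B (-0.93) were lower with niraparib, and MAGI2, a scaffold protein (0.94), the antisense RNA gene LMCD1-AS1 (0.95), PLCL1 (0.96) and ADGRL2 (0.80) were higher. ARHGAP15, DLG2, DSCAM, MTUS2 and RASGEF1B kept their calls in all 6 fits without 1 library, and LMCD1-AS1 in 0. PLCL1 and ADGRL2 also lost theirs in fits that kept all libraries. Leaving out olaparib replicate 3 lowered the count of calls from 18 to 9, and without the libraries that stood apart it was 23, 15 of them among the 18.

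In PARP1 KO cells niraparib changed 0 of the 168 genes tested by the same call, beside 0.0136% of all genes. None had an adjusted P value below 0.05 (edgeR; 0.109% of all genes did), 13 had an unadjusted P value below 0.05 (7.74%, beside 9.14% of all genes), and DESeq2 also called 0. All 24 genes called with niraparib in WT cells were tested there, and their absolute log2 fold change had a median of 0.84 in WT and 0.16 in PARP1 KO cells. The change had the same sign in 15 of the 24 and was smaller in PARP1 KO cells in 23, beside 99.3% of all genes called with niraparib in WT cells, with 0.32 as the lowest adjusted P value (edgeR). The 24 genes were chosen by the size of their WT change, so the order of these sizes is a description only. The exception in size was CNTN5, with 0.89 in WT and 0.94 ± 0.39 in PARP1 KO cells (edgeR, adjusted P = 0.46). DLG2, for example, was at 22.4, 24.5 and 22.9 CPM with DMSO and at 23, 23.7 and 23.3 CPM with niraparib, and ERBB4 at 31.1, 34.6 and 33.5 CPM against 34.0, 34.5 and 31.4 CPM.

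**Figure D3:**
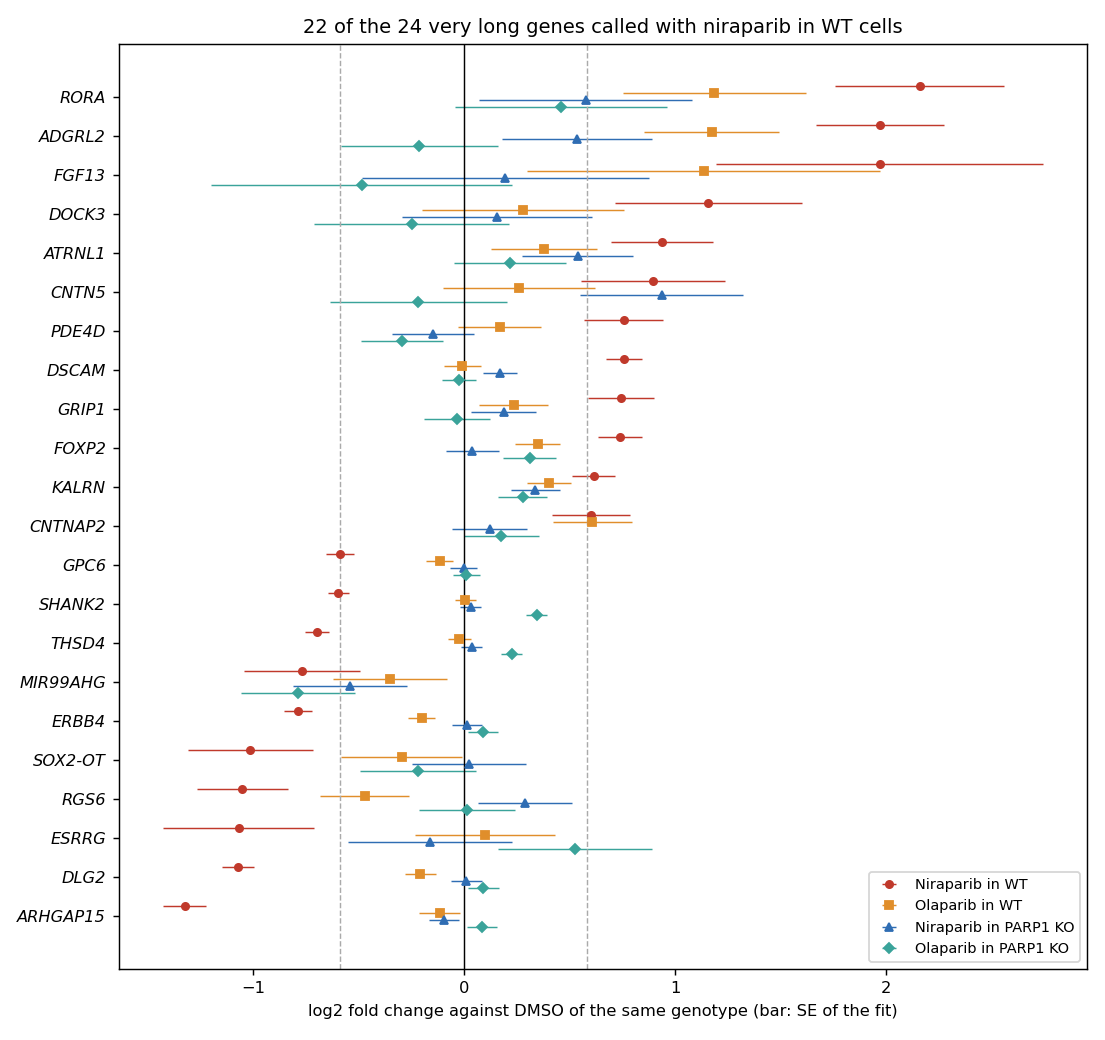
Fitted log2 fold change against DMSO of the same genotype (horizontal axis, bars: standard error; dashed lines: 1.5-fold) for 22 of the 24 very long genes called with niraparib in WT cells, with 4 markers per gene for the 4 drug and genotype combinations. The niraparib WT markers were chosen to lie past the dashed lines; niraparib in PARP1 KO cells has a median absolute change of 0.16 over the 24 and is called for none.

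Whether the response to niraparib differed between the genotypes was tested as an interaction over all 18 libraries. Of 189 genes tested, 14 were called (7.41%, beside 8.88% of all genes), in 10 of which the PARP1 KO change was the more positive and in 4 the more negative. ARHGAP15 (1.22 ± 0.12, adjusted P = 1.2e-09) and DLG2 (1.07 ± 0.10, edgeR, adjusted P = 4.7e-10) were well covered genes with positive values. RGS6 (1.33), ERBB4 (0.80), THSD4 (0.73) and SHANK2 (0.62) were also called. All of these named genes had fallen with niraparib in WT cells. ADGRL2 (-1.45), PDE4D (-0.91), FOXP2 (-0.71) and DSCAM (-0.59), which had risen in WT cells, had the negative interactions, and the call of DSCAM was also lost in fits that kept all libraries. Without the libraries that stood apart 11 of the 14 interactions were called and no other, ADGRL2, DSCAM and SHANK2 being lost. MACROD2 and NLGN1 were called too. MACROD2, which encodes an enzyme that removes ADP-ribose from proteins, was at 3.60, 3.99 and 3.36 CPM with DMSO and 2.41, 2.65 and 2.27 CPM with niraparib in WT cells (-0.58, just short of 1.5-fold, adjusted P = 0.0053, edgeR), and at 2.77, 2.55 and 2.86 against 3.36, 3.08 and 3.03 CPM in PARP1 KO cells. NLGN1, a neuroligin adhesion molecule, had an interaction of 1.15 that was kept in 4 of 12 fits without 1 library, and it was called in neither genotype alone.

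**Figure D4:**
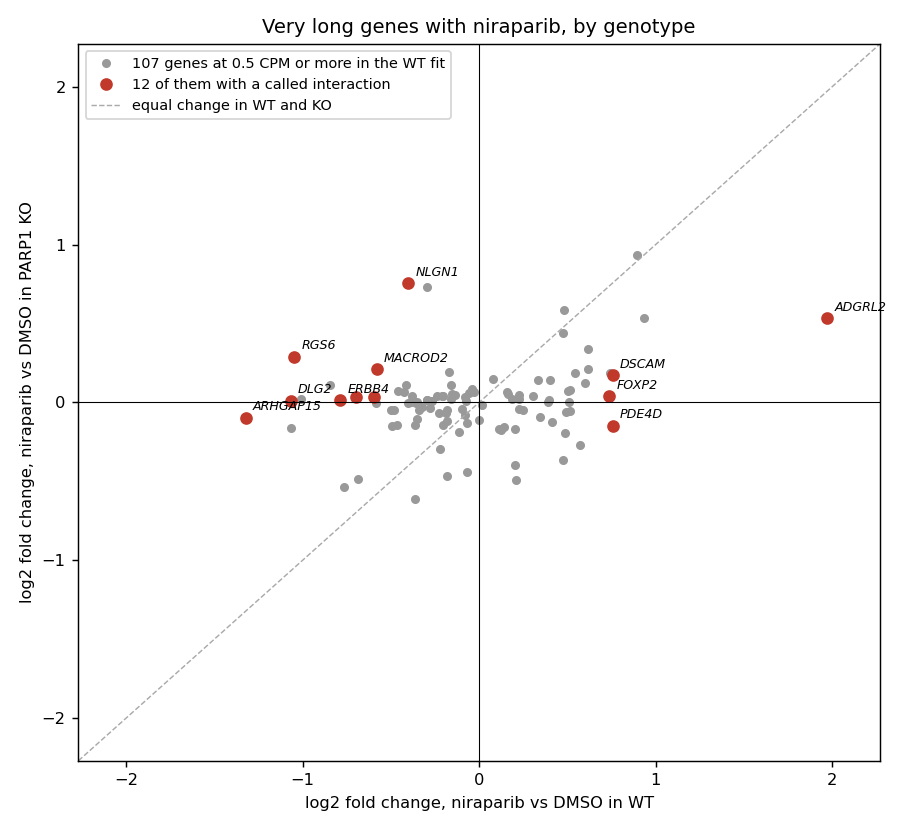
Fitted log2 fold change with niraparib in WT (horizontal axis) and PARP1 KO cells (vertical axis) for 107 of the 109 very long genes at 0.5 CPM or more in the WT fit. Red points are 12 of the genes with a called interaction (THSD4 and SHANK2, unlabelled, lie left of the origin near ERBB4), and the dashed line marks equal change; 86 of the 107 points have the larger absolute change in WT cells, beside 79.8% of all genes at that level.

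Olaparib in PARP1 KO cells gave 0 calls among the 168 genes, beside 0.803% of all genes. There were 32 unadjusted P values below 0.05 (19.05%, beside 21.1% of all genes) and 12 adjusted ones (edgeR; 7.14%, beside 8.29% of all genes), 9 of them for genes that were higher (beside 4.42% of all genes), and DESeq2 called 0. The count of calls stayed at 0 without olaparib replicate 3 or DMSO replicate 1, and ROBO2 then had adjusted P values of 0.053 and 0.038 (edgeR). SHANK2 was at 165, 159 and 159 CPM with DMSO and at 205, 210 and 198 CPM with olaparib (0.34 ± 0.05, edgeR, adjusted P = 2.2e-04), and THSD4 was at 474, 467 and 485 against 557, 592 and 520 CPM (0.23 ± 0.05, edgeR, adjusted P = 0.0066). Both groups of libraries were apart in each gene. Of the interactions between genotype and olaparib, 0 of 189 genes were called (0.657% of all genes), with 31 unadjusted P values below 0.05 (16.4%, beside 15.7%) and 0 calls by DESeq2. SHANK2 alone had an adjusted P value below 0.05 (beside 2.27% of all genes), with an interaction of 0.34 ± 0.07 (edgeR, adjusted P = 0.0042). Between niraparib and olaparib in PARP1 KO cells, 1 of 168 genes was called, or 0.595% beside 1.07% of all genes. It was HS6ST3, a heparan sulfate sulfotransferase, at 7.36, 7.14 and 5.85 CPM with niraparib and 4.73, 4.38 and 3.37 CPM with olaparib (0.70 ± 0.16, edgeR, adjusted P = 0.0078), and its call was lost without olaparib replicate 3.

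Without drug, few of these genes passed the test between genotypes. PARP1 KO against WT cells with DMSO gave 0 calls among 189 genes, beside 0.146% of all genes, with 19 unadjusted P values below 0.05 (10.1%, beside 13.6%) and 0 calls by DESeq2. An adjusted P value below 0.05 was reached by TENM3, ROBO2 and RUNX1 (beside 1.39% of all genes), all higher in PARP1 KO cells at less than 1.5-fold. TENM3 was at 274, 300 and 308 CPM in WT and at 374, 367 and 368 CPM in PARP1 KO cells (0.33 ± 0.05, edgeR, adjusted P = 8.3e-04). ROBO2 differed by 0.31 (adjusted P = 0.040) and RUNX1 by 0.25 (adjusted P = 0.016, edgeR), again with no overlap of the libraries. These are the same 3 genes that passed the adjusted P value as lower with olaparib in both genotypes, and the comparisons share their DMSO libraries.

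Of 20 genes listed as lying at common fragile sites, all had spans over the limit and 17 were tested. With niraparib in WT cells 3 rose (RORA, PDE4D, CNTNAP2) and 2 fell (DLG2, ERBB4), and the median log2 fold change of the 17 was -0.06, as over all the very long genes tested. These 5 calls among 17 genes stand beside 13.8% of all genes. Without the libraries that stood apart 2 rose and 3 fell, CNTNAP2 being lost and MACROD2 called. MACROD2, NAALADL2 (-0.38, adjusted P = 0.0028) and AUTS2 (-0.36, adjusted P = 5.7e-06, edgeR) were lower at less than 1.5-fold. FHIT and WWOX, which span the most studied fragile sites, had changes of -0.43 (adjusted P = 0.11) and -0.00 (adjusted P = 0.99, edgeR) at 2.29 ± 0.346 and 10.1 ± 1.07 CPM with DMSO (SD, n = 3). DMD (-0.06), NBEA (-0.04) and IMMP2L (-0.22) also missed the threshold. LRP1B, CTNNA3, DPYD and PTPRG were tested at under 0.4 CPM in every group and not called, and DAB1, IL1RAPL1 and LSAMP had at most 4 counts in total. With olaparib in WT cells 1 of the 17 was called (CNTNAP2), beside 4.04% of all genes, and MACROD2 (-0.53, adjusted P = 0.023), AUTS2 (-0.23, adjusted P = 0.0024) and ERBB4 (-0.20, edgeR, adjusted P = 0.032) were lower at less than 1.5-fold. Without the libraries that stood apart the 1 call was RORA in place of CNTNAP2. In PARP1 KO cells 0 were called with either drug, beside 0.0136% of all genes with niraparib and 0.803% with olaparib, and the interaction with niraparib was called for 4 (beside 8.88% of all genes), positive for DLG2, ERBB4 and MACROD2 and negative for PDE4D.

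The machinery that carries RNA polymerase II through long genes was read from a list of 32 elongation and topoisomerase genes, none of which is itself very long. With niraparib in WT cells 3 of them rose and 1 fell, beside 8.1% and 5.72% of all genes, and 18 were higher and 5 lower at an adjusted P value below 0.05, beside 19.9% and 18.1% of all genes. ELL2 (0.64), SUPT6H (0.62) and AFF4 (0.61), all elongation factors, rose. TOP2A, a topoisomerase made mainly in dividing cells, fell from 1261 ± 85.1 to 465 ± 27.6 CPM (SD, n = 3), by 1.44 ± 0.06 on the log2 scale (edgeR, adjusted P = 2.1e-14). TOP2B and TOP1, whose products relieve torsion during transcription, had log2 fold changes of -0.46 (adjusted P = 3.8e-08) and 0.34 (edgeR, adjusted P = 1.2e-06) and were not called. In PARP1 KO cells with niraparib, 0 of the 32 were called and none passed the adjusted P value, beside 0.0136% and 0.109% of all genes. Their part in the levels of the very long genes was not tested.

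Classes of genomic span were set side by side for niraparib in WT cells. Over all genes tested, 7.02% of the very long genes were called in each direction. Among genes at 1 CPM or more, the share called lower was 10.0% of the 90 genes of 600 kb or more, against 5.71% of the 350 genes of 300 to 600 kb and 4.70% of the 1999 genes of 100 to 300 kb. The share called higher was 7.78%, against 12.3% and 9.60%. For the very long genes these shares are 9 lower and 7 higher, and the order turned to 7 lower and 9 higher without DMSO replicate 2 and to 8 and 9 without niraparib replicate 2, while without the libraries that stood apart it was 8 lower and 5 higher. Genes under 10 kb also had more calls lower than higher (10.6% and 8.26%). The median log2 fold change was -0.11 in the very long genes, 0.03 in the next class and 0.02 in the one after, and it was -0.07 in the genes under 10 kb. With olaparib in WT cells and with either drug in PARP1 KO cells, the median of the very long genes lay between 0.01 and 0.04. These shares were not tested against one another.

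**Figure D5:**
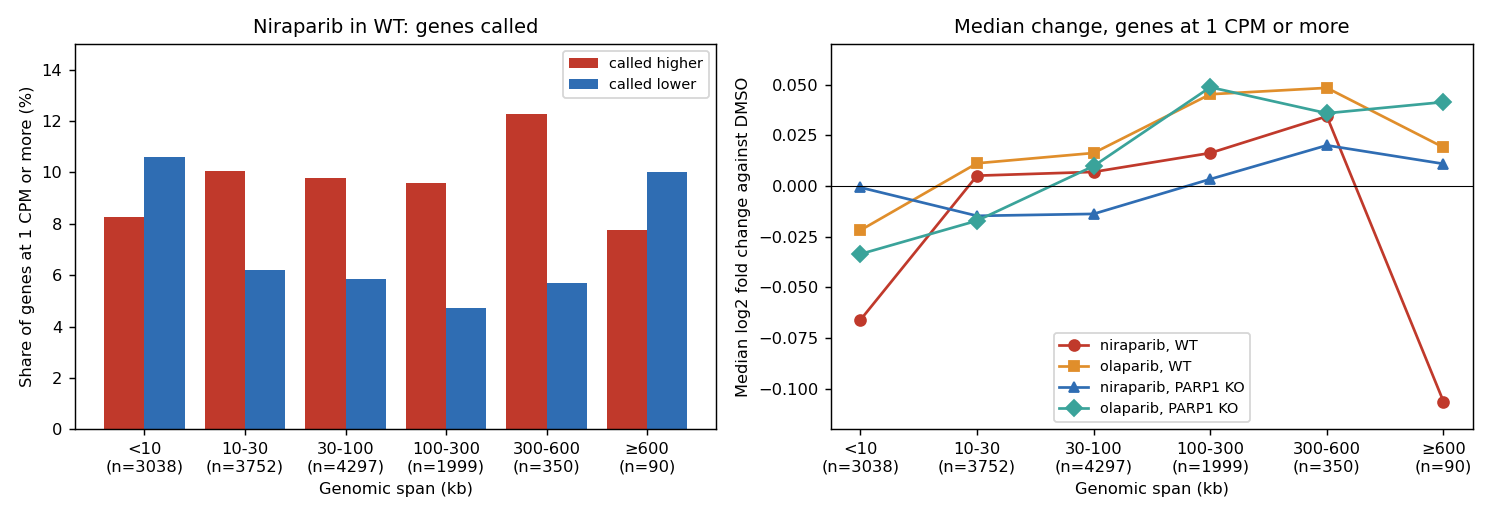
Genes at 1 CPM or more in 6 classes of genomic span (horizontal axis, kb, with the number of genes). Left, share (%) called higher or lower with niraparib in WT cells; right, median log2 fold change against DMSO for both drugs in both genotypes, where the very long genes with niraparib in WT lie at -0.11 and the other 3 values of that class between 0.01 and 0.04.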

How the data were processed

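Polyadenylated RNA of 18 T47D libraries was sequenced. The authors trimmed reads with Trimmomatic, aligned them to GRCh38 with STAR, marked duplicates with Picard (whether these were removed is not given in the sources used here) and counted primary alignments on exons per gene and strand with featureCounts 2.0.0 (Ensembl release 96). The deposited values are raw counts per gene. Reads on bases shared by genes of the same strand were left uncounted.

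Groups came from the labels. A gene entered a fit when its counts there summed to more than 10, and the test was the quasi-likelihood method of edgeR 4.0.16 (R 4.3.3; TMM scaling, robust) in separate fits of 9 WT and 9 PARP1 KO libraries, and in 1 fit of 18 libraries for the genotype contrast and the interactions. P values were adjusted by the Benjamini-Hochberg method over all genes tested in each of 9 comparisons, and a call required more than 1.5-fold at an adjusted P value below 0.05. Each standard error was derived from the size of the fold change and the F statistic (size over root F). CPM used TMM-scaled totals. The scripts were tested on simulated data. Replicate libraries differed by more than sampling noise (chi-square per gene from 3.13 to 19). Symbols matched 41967 of 58884 gene identifiers, and genes without a symbol are given by identifier. Exact permutation of 3 against 3 libraries cannot give a P value below 0.1, so single values such as the summed level were not tested.

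Alternatives were DESeq2 1.42.0, other scaling, filters, sample sets and a replicate block, each library left out in turn, and, added after seeing the data, fits without the 3 libraries that stood apart and fold changes of named genes without a filter and from all 18 libraries. Of 18 pairs of equally numbered libraries within a genotype, 5 had a correlation of deviations above 0.1 (range -0.54 to 0.55), so the numbers were not taken as pairs. Genes were named as the calls of largest change with a mean of at least 0.5 CPM over the fit and, except for interactions, no overlap of libraries, at most 15 per direction for niraparib in WT cells and 5 in each other comparison. Also named were the 10 highest per kb of exon, the 5 of largest span, those at either side of the length limit, the fragile-site list and called elongation genes. Genes past the adjusted P value alone, and calls below these limits, were named after their values were seen. Some genes are not reported here by name or in the fragile-site list, though counts over the very long genes include them. Members and lists were chosen with earlier results of these data known. When the role groups were drawn up again for this text, PARD3, PARD3B, TBC1D5, ADGRB3, ADGRL3 and TMEM132D moved to other groups and a group of secreted ligands and matrix was added.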

Additional observations from a re-analysis of the deposited data

Results flagged for a closer look

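The response to niraparib differed between WT and PARP1 KO cells by the interaction test in 14 of the very long genes (edgeR over 18 libraries, adjusted P value below 0.05 and more than 1.5-fold), beside 8.88% of all genes. As log2 differences of the PARP1 KO response from the WT response, the values named here were lowest for ADGRL2 at -1.45, PDE4D at -0.91, FOXP2 at -0.71 and DSCAM at -0.59. Positive values were 0.62 for SHANK2, 0.73 for THSD4, 0.79 for MACROD2, 0.80 for ERBB4, 1.07 for DLG2, 1.15 for NLGN1, 1.22 for ARHGAP15 and 1.33 for RGS6. Single libraries far from their group were not sought for each gene, since each group holds 3.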

How the results depend on the processing

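No value for a very long gene past the adjusted P threshold reversed its sign under the alternatives counted here. The fits without the 3 libraries that stood apart were not among them. Of 62 calls, 53 were kept under every alternative that used all libraries and 31 also with each library left out in turn. The calls lost with all libraries in the fit were CNTN5, DOCK3 and FGF13 (niraparib in WT), ADGRL2, ENSG00000271860, ERBB4, PLCL1 and RORA (niraparib against olaparib in WT) and DSCAM (interaction). With 1 library left out, calls ran from 20 to 25 for niraparib in WT, 1 to 5 for olaparib in WT, 9 to 16 for niraparib against olaparib in WT and 12 to 19 for the interaction with niraparib. The replicate block gave 21, 5, 14 and 15 calls in these comparisons and the comparisons with 0 calls stayed at 0 under every alternative. Niraparib against olaparib in PARP1 KO cells went from 1 call to 2 without a filter and to 2 in the fit of 18 libraries. The median log2 fold change with niraparib in WT, -0.06, was -0.0865 with the filterByExpr filter and -0.0748 in the fit of 18 libraries, and it ran from -0.0675 to 0.00627 without 1 library. The median with olaparib in WT, 0.03, was 0.0396 with the replicate block and ran from -0.0207 to 0.0748 without 1 library. Without the 3 libraries that stood apart, a choice made after seeing the data, that median was -0.0203, and the counts of calls stayed within 1.5 times their full values. The cause of these shifts was not tested. Depth limits the genes under 0.5 CPM, such as FGF13 and DOCK3, which rest on few reads per library.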
